A study of Mus musculus with 14 samples.

Results

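The comparison described here is the loss of interleukin 7 (IL-7) for 24 h in cultured mouse precursor B cells in which the inducible Ikaros protein was left uninduced. It was read from 4 arrays, as log2 expression in cells kept for 24 h without IL-7 minus log2 expression in cells kept for 24 h with IL-7, each group having 1 array from each of 2 independent experiments. The members are all 19938 genes that have a probe set with 1 gene symbol, each read on its brightest probe set. The whole series holds 14 arrays in 7 groups of 2. The cells were BH1-Bcl2-Ik1ER, a line made from the Ikaros-deficient pre-B cell line BH1 by retroviral transduction with Bcl2 and with Ikaros fused to an estrogen receptor domain (Ik1-ER), followed by cell sorting. All groups carry both transgenes. 4-hydroxytamoxifen (4OHT, 100 nM) activates the fusion protein, and neither group compared here received it. The medium with IL-7 held 8% conditioned medium of J558L cells that overexpress murine IL-7, and withdrawal was culture without that conditioned medium, so anything else in it was withdrawn as well. The other groups used below are time 0, and cells with 4OHT kept with or without IL-7 for 6 h or for 24 h. The line is a transformed one whose Bcl2 transgene can keep cells alive without cytokine, and the 2 experiments are repeats of 1 line. In bulk RNA, fewer cells with a transcript and less transcript per cell cannot be told apart.

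IL-7 is the main growth and survival cytokine of early B cell precursors in the mouse. Its receptor, made of Il7r and the common gamma chain, signals through the kinases JAK1 and JAK3 to the transcription factor STAT5 and, in parallel, through the PI3K and AKT pathway, which keeps the FoxO transcription factors out of the nucleus. STAT5 drives feedback inhibitors such as Cish and Socs2 and the D-type cyclin gene Ccnd2, and represses Bcl6. Removal of IL-7 is known to stop large pre-B cells from cycling and to let them move toward the small, resting pre-B stage, in which light chain genes are rearranged.

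After 24 h without IL-7, 3982 of the 19938 genes passed the limma test at an adjusted p under 0.05, which is 20.0% of the genes. Of these, 2232 were higher without IL-7 (11.2%) and 1750 were lower (8.78%). With the experiment as a block 5499 passed, 3106 higher and 2393 lower. The falls were the larger changes: of 387 genes (1.94%) that passed with at least a 2-fold difference, 331 were lower and 56 higher. The median difference over all genes was -0.01 log2, with a median standard error of 0.09. Each of the 3982 genes moved in the same direction in both experiments. They were chosen by a test on the mean of these experiments, which largely requires a shared direction, so this is no separate support. The differences of the 2 experiments correlated with r = 0.843 across all genes, which are not independent replicates. The median absolute difference of the passing genes was 0.45 in experiment 1 and 0.49 in experiment 2. Values of the 2 groups did not overlap for 10683 genes, or 53.6%, so non-overlap of 2 against 2 arrays is common here. Without the withdrawn array of experiment 2 the total was 2279, with 1113 higher and 1166 lower genes; without the control array of experiment 2 it was 2664, with 1202 higher. Without the withdrawn or the control array of experiment 1 it was 2770 or 3252.

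**Figure D1:**
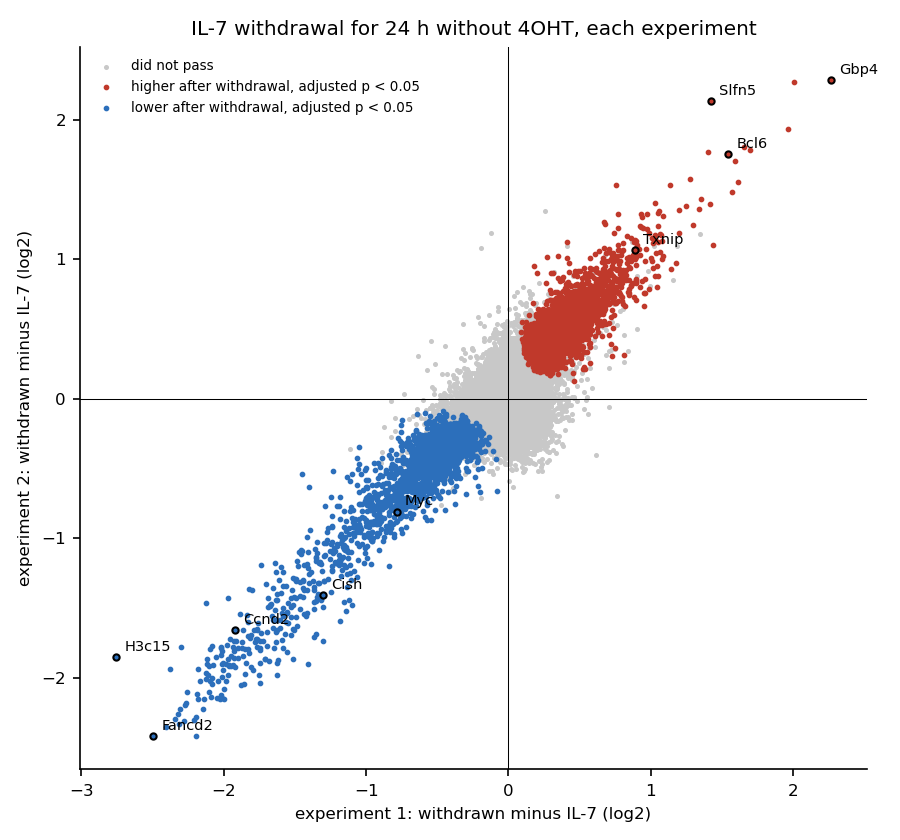
Each dot is 1 of 19938 genes, placed by its log2 difference without IL-7 minus with IL-7 in experiment 1 (horizontal axis) and in experiment 2 (vertical axis); genes that passed the test are coloured by direction and a few are named. The 2 experiments correlated with r = 0.843, and the genes farthest from 0 in both lie on the side of lower expression without IL-7.

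The arrays were alike in scale, with medians of 7.23 to 7.43 log2 and correlations between the 2 arrays of a group of 0.993 to 0.997. The cells carried their labelled identity: all 9 measured B cell identity genes, among them Cd79a, Ebf1, Pax5 and Vpreb1, lay above the median of all values (7.33) in each of the 4 arrays, between 10.47 and 13.91, and 6 of the 9 were higher without IL-7. None of 11 T cell markers and none of 10 NK cell markers lay above that median in all 4 arrays; the linear values of the T cell markers summed to 1014 and 1064 with IL-7 and to 977 and 1000 without, and none of them passed. The same held for 13 of 14 myeloid markers, the exception being the integrin gene Itgam (0.60 higher without IL-7; it did not pass without the control array of either experiment, at 0.59 and 0.61, or without the withdrawn array of experiment 2, at 0.46). The linear values of the myeloid markers summed to 1306 and 1461 with IL-7 and to 1437 and 1504 without it. Of the 10 NK markers, Nkg7 was lower without IL-7 (-1.24), and their sums were 766 and 733 with IL-7 and 633 and 590 without. Of 8 erythroid and megakaryocyte markers, Klf1 and the transferrin receptor gene Tfrc lay above the median, Tfrc was lower (-1.71) and the others did not pass, so that the sums went from 5076 and 4500 to 2000 and 2108. Of 8 plasma cell markers, Sdc1, Xbp1, Irf4, Mzb1 and Slamf7 lay above the median in all 4 arrays, and Prdm1 did not. Mzb1 (0.84) and Prdm1 (0.31) were higher and Sdc1 (-0.78) was lower, with sums of 11923 and 11413 against 12744 and 13862. Prdm1 did not pass without either control array or the withdrawn array of experiment 1, at 0.20 to 0.34. No stromal marker of 10 passed, 3 collagen genes lying above the median, with sums of 1240 and 1427 against 1258 and 1246. Whether other cell types had a part in any result was not tested.

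The promoters of Cish and Bcl6 are shown because these genes stand for the activated and the repressed side of STAT5 in the data below. They run from 250 bases before to 50 bases after the RefSeq start site in the mouse build GRCm38.p6, 5' to 3' on the strand of the gene, with the STAT5 motif TTCNNNGAA in capitals. Cish lies at chr9:107296409-107296708 on the plus strand, and the Bcl6 start shown at chr16:23981234-23981533 on the minus strand.
Cish: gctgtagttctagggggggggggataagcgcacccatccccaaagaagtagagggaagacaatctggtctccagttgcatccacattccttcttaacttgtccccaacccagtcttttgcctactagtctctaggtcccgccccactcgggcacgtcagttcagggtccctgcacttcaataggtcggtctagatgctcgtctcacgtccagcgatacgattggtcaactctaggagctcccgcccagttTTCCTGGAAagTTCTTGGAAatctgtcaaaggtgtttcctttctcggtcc
Bcl6: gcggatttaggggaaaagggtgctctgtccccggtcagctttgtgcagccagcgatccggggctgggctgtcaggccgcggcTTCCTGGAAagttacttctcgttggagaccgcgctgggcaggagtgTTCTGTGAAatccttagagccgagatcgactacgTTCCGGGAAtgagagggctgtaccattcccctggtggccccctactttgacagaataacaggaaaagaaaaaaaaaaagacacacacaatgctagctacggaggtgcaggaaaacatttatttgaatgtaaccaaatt
Cish had 2 matches, the first beginning at the start site itself, and this Bcl6 promoter had 3 matches. The other RefSeq start of Bcl6 had 1. The motif reads the same on both strands and was found in 7.66% of all promoters of measured genes, in 7.09% of those of genes higher without IL-7 and in 7.03% of those of lower genes. RefSeq promoters matched 11 of the 15 STAT5 response genes, and 4 of their 16 promoters held it (25%). These 4 include the Cish promoter and both Bcl6 promoters described here. A match is a run of letters and shows no binding.

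Cish, the STAT5-induced inhibitor of cytokine signalling, was lower without IL-7. It stood at 9.52 and 9.58 log2 in the 2 arrays with IL-7 and at 8.22 and 8.18 in the 2 without, a 2.56-fold fall (-1.36, SE 0.08, adjusted p = 4.36e-06). Socs2, a second feedback inhibitor, went from 12.96 and 12.84 to 11.33 and 11.40 (-1.53, SE 0.12, adjusted p = 1.22e-05). Ccnd2, which encodes the D-type cyclin that couples cytokine to G1 progression, went from 12.21 and 12.34 to 10.29 and 10.68, a 3.46-fold fall (-1.79, SE 0.19, adjusted p = 5.68e-05). In all 3 genes the groups lay far apart. Bcl6, a repressor that STAT5 holds down, moved the other way, from 8.86 and 8.66 to 10.40 and 10.41, a 3.13-fold rise (1.65, SE 0.09, adjusted p = 2.28e-06). The other members that passed were Myc (-0.80), Ccnd3 (-0.24) and the survival gene Mcl1 (0.25). Ccnd3 did not pass without either withdrawn array or the control array of experiment 1, at -0.24 to -0.21. Mcl1 did not pass without either withdrawn array or the control array of experiment 2, at 0.15 to 0.29. In all, 2 of the 15 STAT5 response genes were higher and 5 lower (46.7% against 20.0% of all genes), with a median of -0.18 against -0.01 for all genes. Socs1 (-0.18), the kinase gene Pim1 (-0.24), the cytokine gene Osm (-0.15), Mycn (-0.18) and Bcl2l1 (0.26) did not pass; with quantile normalization Socs1 (-0.29, adjusted p = 0.0388) and Osm (-0.26, adjusted p = 0.0415) did.

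Cish stood at 8.27 on average at time 0, Socs2 at 11.64, Ccnd2 at 10.91 and Bcl6 at 10.10, so for each of these genes the cells of time 0 lay closer to the withdrawn cells than to the cells kept with IL-7 for 24 h. Of the 15 STAT5 response genes, 10 lay nearer to the withdrawn cells at time 0, and of all genes 52.9% did. When the withdrawn arrays were set against time 0 in place of the arrays with IL-7, 1 of the 15 genes passed.

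The receptor pathway itself was higher without IL-7. Of 9 measured components, 7 were higher and none was lower, with a median of 0.32. Il7r, the cytokine-binding chain, went from 12.90 and 12.84 to 13.28 and 13.33 (0.44, SE 0.09, adjusted p = 0.00384). Stat3 (0.60), Stat5a (0.51), Stat5b (0.33) and Jak1 (0.32) were also higher. These are small changes: 3 of the 9 genes passed without either withdrawn array or the control array of experiment 2. Jak1 did not pass when any of the 4 arrays was left out (0.31 to 0.33), and Stat5b did not pass without either withdrawn array or the control array of experiment 2 (0.24 to 0.35). Against time 0, 1 of the 9 passed.

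The deepest falls were in genes of cell division. Among passing genes with an established name whose higher group lay above the median of all values, the 12 largest falls were those of Fancd2, Ncapg, Ttk, Pbk, Cenpi, H3c15, Nuf2, Cenph, Kif2c, Kif4, Ska3 and Kntc1. Apart from Fancd2, a DNA crosslink repair gene, and H3c15, a replication-dependent histone gene whose near-identical copies make its value uncertain, they encode parts of condensin, the centromere, the kinetochore, spindle motors and mitotic kinases. Fancd2 went from 10.03 and 9.84 to 7.54 and 7.42, a 5.49-fold fall (-2.46, SE 0.24, adjusted p = 3.49e-05). Ncapg, a condensin subunit, went from 11.16 and 10.94 to 8.75 and 8.59 (-2.38). H3c15 went from 10.04 and 9.27 to 7.28 and 7.42 (-2.30). The spindle checkpoint kinase gene Ttk (-2.32), the kinetochore gene Nuf2 (-2.29) and the microtubule-depolymerizing kinesin gene Kif2c (-2.26) fell to a similar extent.

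The division genes moved as whole groups. All 27 measured genes of G2/M and mitosis were lower, 26 of them at least 2-fold, with a median of -1.79. Mki67, the proliferation marker, stood at 12.56 in both arrays with IL-7 and at 11.14 and 11.02 without (-1.47, SE 0.08, adjusted p = 2.28e-06). Bub1 (-2.09), Birc5 (-1.97), Plk1 (-1.87) and Cdk1 (-1.79) were among the members, and Cdc25b (-0.81) fell the least. All 29 DNA replication genes were lower as well, 21 of them at least 2-fold, with a median of -1.37. Pole, the catalytic subunit of the leading-strand polymerase, went from 11.34 and 11.42 to 9.25 and 9.28 (-2.11). Mcm5, a subunit of the replicative helicase, went from 11.71 and 11.68 to 10.15 and 10.16 (-1.54). Orc1 (-2.04), Mcm10 (-1.95), Cdc45 (-1.88) and the sliding clamp gene Pcna (-0.75) also fell.

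Of 16 G1 cyclins, their kinases and E2F factors, 14 were lower and none was higher, with a median of -1.20 and 9 members at least 2-fold lower. The share that passed was 87.5%, against 20.0% of all genes. E2f8 (-1.87), Ccne1 (-1.76), E2f1 (-1.38) and Ccnd1 (-0.59) were lower. The kinase genes Cdk4 (-0.13) and Cdk6 (0.31) did not pass; with experiment as a block, Cdk6 passed at an adjusted p of 0.00293. Among 9 CDK inhibitors and pocket proteins, 3 were higher and 2 lower (median -0.12), which is 55.6% against 20.0% of all genes. Rb1 (0.62) and Cdkn1b, which encodes p27 (0.39), were higher, and the S-phase pocket protein gene Rbl1 (-1.16) was lower. Of these 9, 3 passed without the withdrawn array of experiment 1 or the control array of experiment 2, and 2 without the withdrawn array of experiment 2; Cdkn1b was lost in all 3 cases, at 0.28 to 0.40. Unlike the STAT5 genes, the division genes were low against time 0 too: all 27 G2/M genes, 27 of the 29 replication genes and 10 of the 16 G1 genes passed against time 0, with medians of -1.66, -0.96 and -0.65.

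**Figure D2:**
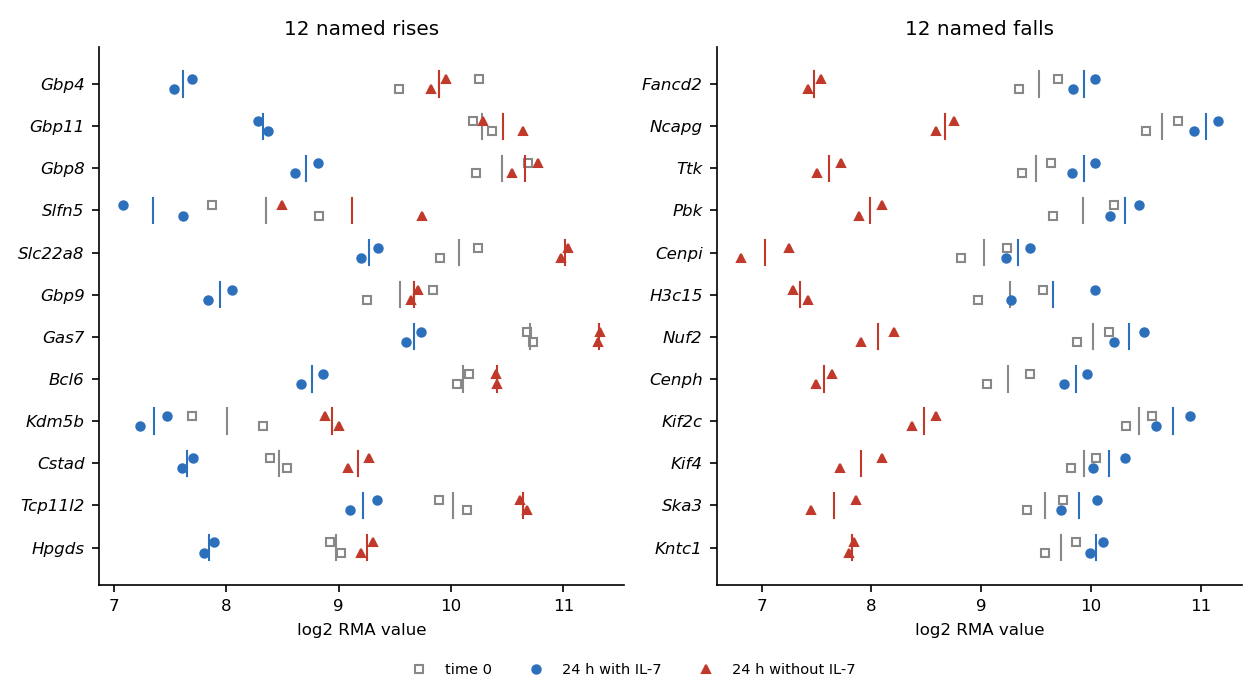
Log2 expression of the genes with the 12 largest rises and the 12 largest falls named in the text, each dot 1 array of time 0, of 24 h with IL-7 or of 24 h without IL-7. For Gbp4 and Bcl6 the time 0 arrays sit near the arrays without IL-7, whereas for Fancd2 and Ncapg they sit near the arrays with IL-7.

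Growth and biosynthesis genes formed the next layer of falls. Myc, the transcription factor that drives ribosome production and nucleotide synthesis, stood at 12.88 and 12.86 with IL-7 and at 12.10 and 12.05 without, a 1.74-fold fall (-0.80, SE 0.11, adjusted p = 0.000258), and at 12.52 at time 0. Of 13 genes of the MYC and MAX network, 4 were higher and 2 lower (median -0.03), which is 46.2% against 20.0% of all genes. The MYC antagonists Mxd4 (0.62) and Mxd1 (0.59) were higher and Mxd3 (-0.87), which is made in S phase, was lower. All 19 measured genes of polyamine and nucleotide synthesis were lower, 16 of them at least 2-fold, with a median of -1.25. Srm, the spermidine synthase, went from 12.30 and 12.36 to 11.14 and 10.90 (-1.31, SE 0.15, adjusted p = 0.000106). Dctd, the dCMP deaminase, went from 11.27 and 11.20 to 10.10 and 9.92 (-1.22). The mitochondrial folate enzyme gene Mthfd2 (-1.90), thymidylate synthase Tyms (-1.78), ribonucleotide reductase Rrm2 (-1.65) and ornithine decarboxylase Odc1 (-1.34) were lower too.

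Of 24 genes of ribosome biogenesis and RNA polymerase I, 22 were lower and none higher, with a median of -0.69. Polr1b, a core subunit of RNA polymerase I, went from 11.04 and 11.08 to 10.09 and 10.06 (-0.99). The nucleolar genes Nop58 (-1.11), Fbl (-1.03) and Gnl3 (-0.98) and the pre-ribosome factor gene Tsr1 (-0.98) fell as well. Npm1 (-0.48) and Pes1 (-0.13) did not pass; Npm1 passed with experiment as a block, at an adjusted p of 0.00961. Of 22 cytoplasmic ribosomal protein genes, 1 was lower, Rpl13 (-0.34), which did not pass when any of the 4 arrays was left out, at -0.39 to -0.29; the block gave 3. The median of the ribosomal proteins was -0.09. Against time 0, 11 of the 24 ribosome biogenesis genes and 15 of the 19 polyamine and nucleotide genes passed, all lower.

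The promoters of Atic, a purine synthesis enzyme gene, and Tsr1 are shown because each holds the E-box CACGTG, the letters that MYC and MAX and other factors of their class bind; the motif, in capitals, reads the same on both strands. Atic lies at chr1:71556906-71557205 and Tsr1 at chr11:74897830-74898129, both on the plus strand of GRCm38.p6.
Atic: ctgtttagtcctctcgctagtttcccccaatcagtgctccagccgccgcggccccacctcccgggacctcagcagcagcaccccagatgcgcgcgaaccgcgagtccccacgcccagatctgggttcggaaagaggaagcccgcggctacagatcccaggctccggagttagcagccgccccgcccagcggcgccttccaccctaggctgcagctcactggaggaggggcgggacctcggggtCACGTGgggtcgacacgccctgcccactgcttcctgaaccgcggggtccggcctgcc
Tsr1: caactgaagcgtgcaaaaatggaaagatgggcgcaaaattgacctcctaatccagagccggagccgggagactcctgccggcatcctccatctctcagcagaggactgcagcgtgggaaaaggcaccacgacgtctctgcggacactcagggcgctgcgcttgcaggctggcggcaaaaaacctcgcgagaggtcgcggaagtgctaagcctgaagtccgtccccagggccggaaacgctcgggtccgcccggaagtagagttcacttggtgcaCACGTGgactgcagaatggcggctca
The E-box began 7 bases before the start site in Atic and 24 bases after it in Tsr1. It was found in 8.24% of all promoters of measured genes, in 12.9% of those of genes lower without IL-7 and in 9.75% of those of higher genes. Of 21 promoters of the ribosome biogenesis list 6 held it (28.6%), and of 21 of the polyamine and nucleotide list 3 held it (14.3%). Atic itself stood at 12.04 and 12.01 with IL-7 and at 10.90 and 10.92 without (-1.11), and Tsr1 at 10.39 and 10.13 against 9.20 and 9.36.

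Of 18 aminoacyl-tRNA synthetase genes 13 were lower (median -0.55), among them Vars (-0.78). The shares that passed were 72.2% for this list, 56.2% for glycolysis, 68.8% for heat shock and chaperonin, and 66.7% for mitochondrial translation and import. Of all genes 20.0% passed. Of 16 glycolysis genes 9 were lower (median -0.42), including hexokinase Hk2 (-1.11) and lactate dehydrogenase Ldha (-0.70). Of 17 genes of amino acid transport and the ATF4 response 7 were lower and 2 higher (median -0.20), which is 52.9% against 20.0% of all genes. The transporter gene Slc7a5 (-1.69), asparagine synthetase Asns (-1.45) and the serine synthesis gene Phgdh (-1.37) fell, and Ddit4, an inhibitor of mTORC1, was higher (0.52). Of 16 heat shock and chaperonin genes 11 were lower (median -0.50), led by the mitochondrial chaperonin gene Hspd1 (-0.95), and 7 passed without the withdrawn array of experiment 2 or the control array of experiment 1. Of 21 genes of mitochondrial translation and import 14 were lower (median -0.42), led by Timm8a1 (-1.39), and 9 passed without the withdrawn array of experiment 1 or the control array of experiment 2, 5 without the control array of experiment 1 and 4 without the withdrawn array of experiment 2. Of 21 oxidative phosphorylation genes 4 were lower (median -0.27), which is 19.0% against 20.0% of all genes, a count that was 12 with experiment as a block, 1 without the withdrawn array of experiment 1, 2 without the control array of experiment 2 and 0 without either other array.

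Of 19 genes of cholesterol synthesis and uptake 12 were lower and 1 was higher, with a median of -0.40; the count that passed was 7 without the withdrawn array of experiment 2 and 6 without the control array of experiment 1. In the main fit 68.4% of the list passed, against 20.0% of all genes. Idi1, an isomerase of the mevalonate pathway, went from 11.17 and 10.97 to 10.04 and 9.62 (-1.24), and stood at 11.47 at time 0. Cyp51, the lanosterol demethylase, went from 10.03 and 9.81 to 8.85 and 8.95 (-1.02), from 10.79 at time 0. The cells with IL-7 were themselves below time 0 by a median of -0.61, and 18 of the 19 genes were lower in the withdrawn cells than at time 0 (median -1.16). Of 13 fatty acid synthesis genes 6 were lower, such as Acaca (-0.92), and 1 was higher (median -0.11), which is 53.8% against 20.0% of all genes. Against time 0 the medians of this list were -0.14 with IL-7 and -0.30 without. Of the 13, 3 passed without the withdrawn array of experiment 1, and 4 without the withdrawn array or the control array of experiment 2.

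Among the 12 largest rises, chosen by the same limits, 4 were those of guanylate-binding proteins, GTPases that interferon induces, namely Gbp4, Gbp11, Gbp8 and Gbp9. Gbp4 went from 7.69 and 7.54 to 9.96 and 9.82, a 4.84-fold rise (2.27, SE 0.21, adjusted p = 2.54e-05). Gbp11 went from 8.28 and 8.37 to 10.28 and 10.64 (2.14, SE 0.15, adjusted p = 8.23e-06). At time 0 these genes stood at 9.89 and 10.28, at the level of the withdrawn cells, and the cells kept with IL-7 lay below time 0. The guanylate-binding proteins of this cluster share long stretches of sequence, so their values may not be independent. Of the 25 genes of the interferon response list, which includes these 4, 7 were higher and 1 lower (32% against 20.0% of all genes), with a median of 0.31, and 5 passed without the withdrawn array of experiment 2 or the control array of experiment 1. Besides the 4 guanylate-binding proteins, Oasl2 (1.15), Ddx58 (0.94) and Stat2 (0.41) were higher and Bst2 (-0.48) was lower. Without either of the 2 arrays just named, neither Oasl2 (0.70 and 0.88) nor Ddx58 (0.58 and 0.74) passed. Stat2 did not pass without the withdrawn array of experiment 2, and Bst2 did not without the control array of experiment 1.

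The other 8 of the 12 were Bcl6, Slfn5, Slc22a8, Gas7, Kdm5b, Cstad, Tcp11l2 and Hpgds. Slfn5, a member of the schlafen family, stood at 7.08 and 7.61 with IL-7 and at 8.50 and 9.74 without (1.78, SE 0.43, adjusted p = 0.0115). Its rise was 1.15 without the withdrawn array of experiment 2 and 1.51 without the control array of experiment 1, and it did not pass in either case. Slc22a8, an organic anion transporter gene, went from 9.35 and 9.19 to 11.04 and 10.98 (1.74), and Gas7, named for its expression in growth-arrested cells, from 9.74 and 9.60 to 11.33 and 11.31 (1.65). Kdm5b, a histone H3 lysine 4 demethylase gene, went from 7.47 and 7.23 to 8.87 and 9.0 (1.59), above its time 0 level of 8.01. Hpgds, the hematopoietic prostaglandin D synthase, was higher by 1.41.

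Genes under FoxO control and genes of the lysosome were higher in many small steps. Of 23 FoxO factors and targets 15 were higher and none was lower, with a median of 0.41. Bcl6 (1.65), counted above with the STAT5 genes, is also in this list and is its only member at least 2-fold higher. Txnip, a thioredoxin-binding inhibitor of glucose uptake, stood at 11.13 and 11.14 with IL-7, at 12.02 and 12.21 without, and at 11.23 at time 0 (0.98, SE 0.12, adjusted p = 0.000173). The ligand gene Tnfsf10, which encodes TRAIL (0.82), the anti-proliferative gene Btg1 (0.76), the PI3K inhibitor gene Pik3ip1 (0.75), Foxo1 (0.54) and Foxo3 (0.41) were higher. Foxo1 did not pass without the withdrawn array of experiment 1 (0.52) or the control array of experiment 2 (0.41). Of 27 autophagy and lysosome genes 17 were higher and none lower (median 0.32), such as Wipi1 (0.83), the lysosomal sialidase gene Neu1 (0.66), Map1lc3a (0.61) and the autophagy receptor gene Sqstm1 (0.50). That count was 9 without either withdrawn array and 7 without the control array of experiment 2. Against time 0, 4 of the FoxO genes and 1 of the autophagy genes passed.

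The Txnip promoter, at chr3:96557707-96558006 on the plus strand of GRCm38.p6, is shown with the FoxO motif, searched as TGTTTAC and its complement GTAAACA, in capitals.
Txnip: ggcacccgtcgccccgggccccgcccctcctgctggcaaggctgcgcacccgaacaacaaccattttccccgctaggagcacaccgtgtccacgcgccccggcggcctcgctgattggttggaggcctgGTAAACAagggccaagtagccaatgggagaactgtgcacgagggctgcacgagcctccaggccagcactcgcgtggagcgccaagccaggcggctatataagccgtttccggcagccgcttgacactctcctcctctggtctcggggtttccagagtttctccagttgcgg
The match began 121 bases before the start site. The motif was found in 3.01% of all promoters of measured genes, in 2.98% of those of genes higher without IL-7, in 2.56% of those of lower genes and in 4 of 22 promoters of the FoxO list (18.2%).

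**Figure D3:**
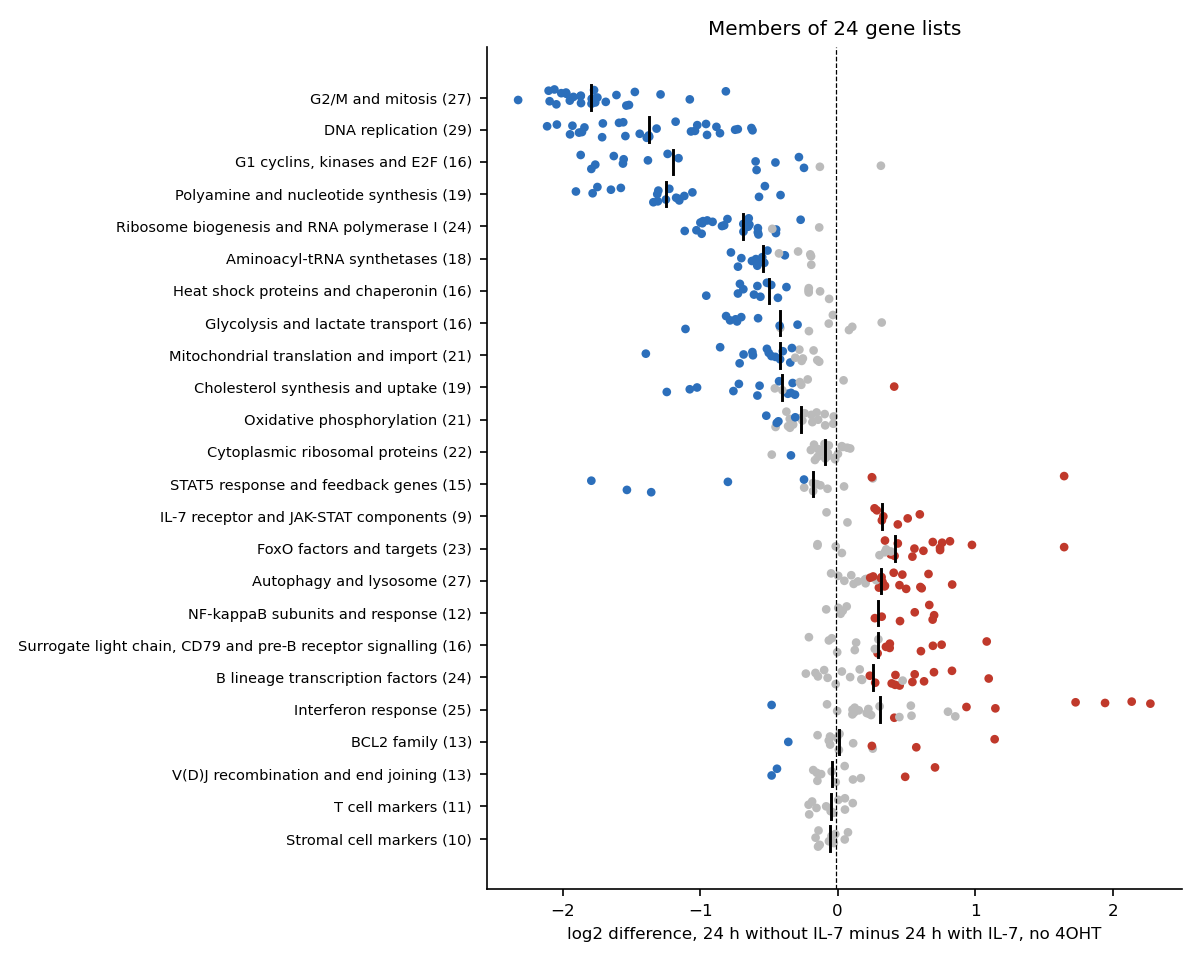
Log2 differences without IL-7 minus with IL-7 of the members of 24 gene lists, 1 dot per gene, red where the gene passed as higher, blue where it passed as lower and grey where it did not pass; black bars are list medians and the dashed line is the median of all genes. The G2/M, DNA replication and polyamine and nucleotide lists lie wholly below the dashed line, with medians of -1.79, -1.37 and -1.25.

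Genes of the pre-B cell receptor and of B cell differentiation were mostly higher or not past the test. Of 16 genes of the surrogate light chain, CD79 and pre-B receptor signalling, 8 were higher and none was lower (median 0.29), with 5 passing without the withdrawn array or the control array of experiment 2. Blnk, the adaptor that links the receptor to its downstream kinases, went from 11.88 and 11.86 to 12.63 and 12.62 (0.76) and stood at 12.28 at time 0. The kinase genes Fyn (1.08) and Zap70 (0.69), Vpreb3 (0.61) and Cd79b (0.38) were higher. Vpreb1, a surrogate light chain gene, was higher by 0.29 and did not pass without the withdrawn array or the control array of experiment 2, at 0.257 and 0.255. Its partner Igll1 (0.13) and Cd79a (0.27) did not pass. With quantile normalization Igll1 passed (0.27, adjusted p = 0.0115), and Cd79a passed with experiment as a block at an adjusted p of 0.0269. Of 14 pro-B and large pre-B genes 6 were higher (median 0.14), and 3 of them passed without the withdrawn array or the control array of experiment 2; Kit (-0.16) and Il2ra (-0.01), which at time 0 lay under the median of all values (6.66 and 5.48), did not pass, though Kit did with quantile normalization (-0.22, adjusted p = 0.0499). Of 21 genes of small pre-B and later B cells 6 were higher and 1 lower (median 0.08). The shares that passed in these 3 lists were 50%, 42.9% and 33.3%, against 20.0% of all genes.

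Of 24 B lineage transcription factors 12 were higher and none was lower (median 0.25); 7 passed without the withdrawn array of experiment 1 and 6 without the control array of experiment 2. Spib (0.91), Klf3 (0.83), Zeb2 (0.70), Lef1 (0.63), Foxp1 (0.63), Irf8 (0.63), Ikzf3, which encodes Aiolos (0.56), Spi1, which encodes PU.1 (0.54), Sox4 (0.48), Ebf1 (0.45) and Pax5 (0.42) were all higher. Pax5 did not pass without either control array or the withdrawn array of experiment 2, at 0.325 to 0.44. Ikzf1 stood at 13.02 and 13.06 with IL-7 and at 13.26 and 13.28 without (0.23, adjusted p = 0.0357), and did not pass when any of the 4 arrays was left out, at 0.21 to 0.26. Whether its probe set reads the retroviral Ikaros fusion is not given in the sources used here.

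Of 13 genes of V(D)J recombination and end joining 2 were higher and 2 lower (median -0.04; 30.8% against 20.0% of all genes), and 2 passed without the withdrawn array of experiment 2. The polymerase gene Polm (0.71) was higher and the end-joining gene Xrcc5 (-0.48) lower. The recombinase gene Rag1 lay between 5.77 and 5.81 in the 4 arrays (-0.01), under the median of all values, and Rag2 did not pass either (-0.15). Rag2 passed as lower (-0.32, adjusted p = 0.043) without the control array of experiment 1. In the BCL2 family, 3 of 13 genes were higher and 1 lower (median 0.0093; 30.8%). Bmf, a pro-apoptotic BH3-only gene, went from 10.51 and 10.37 to 11.56 and 11.60 (1.14). Mcl1 is given above, and Bid (-0.36) was lost when any of the 4 arrays was left out, at -0.42 to -0.30. Bcl2 (0.01), which the cells carry as a transgene, and the BH3-only gene Bcl2l11 (-0.15) did not pass. Whether the Bcl2 probe set reads the retroviral copy is not given in the sources used here. The list's count was 2 without the withdrawn array of experiment 1 or the control array of experiment 2, and 1 without the withdrawn array of experiment 2.

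Of 12 NF-kappaB subunits and response genes 7 were higher (median 0.30), among them the inhibitor gene Nfkbia (0.70), Rel (0.69) and Nfkb2 (0.45). Of 17 ERK feedback and immediate early genes 5 were higher, such as Jun (0.93) and Nr4a1 (0.87), and 1 was lower (median 0.15); 3 passed without either withdrawn array. Of 15 p53 target genes 5 were higher (median 0.17), and 3 passed without the withdrawn array of experiment 1. Of 17 integrin and adhesion genes 4 were higher, including Itga1 (1.0) and Itga4 (0.88), and 2 were lower, including Cd44 (-0.63), with a median of 0.09. Of 9 MHC class II genes, H2-Ob (1.08) and H2-Oa (0.98), which encode the modulator of peptide loading found in B cells, were higher. Of 12 migration receptor genes only Cxcr5 passed (-0.89), and of 9 Notch pathway genes 2 were lower, including the glycosyltransferase gene Lfng (-1.28); 1 of those 2 passed without the withdrawn array of experiment 1 or the control array of experiment 2. Cxcr5 lay under the median of all values (7.33) in both groups, where values carry little signal. It stood at 5.56 at time 0, with the IL-7 group at 0.82 and the withdrawn group at -0.07 relative to that. The shares that passed were 58.3% for the NF-kappaB, 35.3% for the ERK, 33.3% for the p53 and 35.3% for the integrin list, against 20.0% of all genes. They were 22.2% for the MHC class II, 8.33% for the migration receptor and 22.2% for the Notch list, near or below the 20.0% of all genes. The medians of the last 3 lists were 0.10, -0.04 and -0.07, so their counts are no result about the lists. Most members of the ERK, p53 and integrin lists lie above the median of all values, and more than 20.0% of such genes passed. Whether the shares of these 3 lists exceed that of such genes was not tested.

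The place of time 0 differed between rises and falls. Of the 2232 genes that were higher without IL-7, 1392 (62.4%) stood nearer at time 0 to the withdrawn cells, with a median of -0.24 for the cells with IL-7 minus time 0 and of 0.18 for the withdrawn cells minus time 0. Of the 1750 lower genes, 479 (27.4%) stood nearer to the withdrawn cells, with medians of 0.20 and -0.34. Among genes that passed with at least a 2-fold difference, 42 of the 56 higher genes (75%) but 26 of the 331 lower genes (7.85%) stood nearer to the withdrawn cells. Over all genes the share was 52.9%. Setting the withdrawn arrays against time 0 gave 1099 passing genes, 284 higher and 815 lower, of which 998 also passed with the same direction against the cells with IL-7. Of the genes that passed against time 0 with at least a 2-fold difference, 4 were higher and 234 lower.

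With 4OHT present, the same withdrawal for 24 h was read in 4 other arrays. There, 4846 genes passed (24.3%), 2552 higher (12.8%) and 2294 lower (11.5%), and 6570 passed with the experiment as a block. Of the genes higher without IL-7 in the absence of 4OHT, 1688 were higher under 4OHT too, which is 75.6% of the first list and 66.1% of the second. For the lower genes 1540 were shared, 88.0% and 67.1% of the lists. The differences correlated with r = 0.847 across all genes, and 21 genes passed in opposite directions.

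The difference between the responses was tested directly, as withdrawal without 4OHT minus withdrawal under 4OHT, and 137 genes passed (0.687%), 123 with a higher (0.617%) and 14 with a lower value (0.0702%) in the absence of 4OHT. With the experiment as a block 449 passed (367 and 82). With 1 of the 8 arrays left out between 50 and 96 passed, and it was 74 or fewer without any array but the control array of experiment 1 in the absence of 4OHT (95) and the withdrawn array of experiment 1 under 4OHT (96). Myc showed the largest difference of those named by rule. Its difference was -0.80 without 4OHT and -3.27 under 4OHT, a 9.65-fold fall, and the gap of 2.47 between them had an adjusted p of 3.05e-05 and lay between 2.41 and 2.53 with any array left out. Srm (-1.31 against -3.67, difference 2.37, adjusted p = 0.000581) and Dctd (-1.22 against -3.38, difference 2.16) followed, and both passed with any array left out.

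Growth genes had the same direction. Of 24 ribosome biogenesis genes, Polr1a, Polr1b, Gnl3, Nolc1, Tsr1, Utp20 and Mybbp1a had a smaller fall without 4OHT, with list medians of -0.69 without and -1.36 under 4OHT. Of 19 polyamine and nucleotide genes, Srm, Gart, Atic, Ctps and Dctd did so, with medians of -1.25 and -2.11. These counts of 7 and 5 were 15 and 8 with experiment as a block. The ribosome biogenesis count was 2 without either array with IL-7 under 4OHT, without the withdrawn array of experiment 2 under 4OHT, or without the withdrawn or control array of experiment 2 in the absence of 4OHT; it was 3 and 4 without the withdrawn and the control array of experiment 1 in the absence of 4OHT. The polyamine and nucleotide count was 3 without any of these except the last. For Polr1b the falls were -0.99 and -2.47 (difference 1.48, adjusted p = 0.00083). No gene of the DNA replication or G2/M lists passed for the difference, with medians of -1.37 against -1.72 and -1.79 against -1.71. The block gave 6 DNA replication genes and no G2/M gene. Tsr1 (0.89) did not pass for the difference without either control array under 4OHT, without the withdrawn array of experiment 2 under 4OHT, or without any array but the control array of experiment 1 in the absence of 4OHT (0.76 to 0.97). Since all cells carry the fusion protein, Ikaros and other actions of 4OHT cannot be told apart, and the labels do not say whether cells without 4OHT received vehicle.

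**Figure D4:**
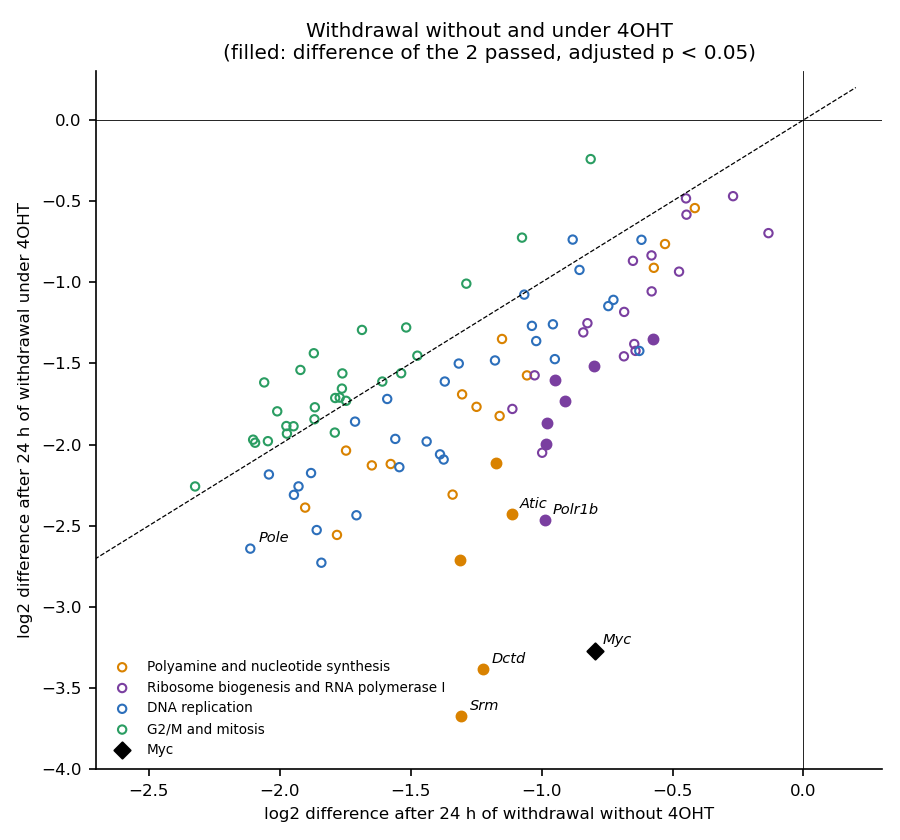
Log2 difference without IL-7 minus with IL-7 at 24 h in the absence of 4OHT (horizontal axis) and under 4OHT (vertical axis) for the members of 4 gene lists and for Myc; filled symbols are genes whose difference between the responses passed the test and the diagonal marks equal responses. Myc lies far under the diagonal, at -0.80 and -3.27, as do Srm and Dctd, while the G2/M genes lie along it.

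Nrp2, the semaphorin and VEGF co-receptor gene, went from 10.06 and 9.91 to 10.70 and 10.76 without 4OHT (0.74) and fell under 4OHT (-0.91), a difference of 1.66 (adjusted p = 4.62e-05). Of the 21 genes that passed in opposite directions, 16 passed for the difference too, among them Nrp2, Vpreb1 (0.29 against -0.46), Vav3, Spry2, Tslp and Gas2. Nuggc, a germinal center-associated nuclear GTPase gene, did not pass without 4OHT (0.03) and rose under it (1.26, difference -1.23). S100a10 fell without 4OHT (-0.86) and did not pass under it (0.25, difference -1.11). Tfrc differed by -1.71 without 4OHT and by -0.57 under it (difference -1.14), and Gbp11 by 2.14 and 0.79 (difference 1.35). Tfrc passed for the difference with 1 array left out only where that array was a withdrawn array under 4OHT; otherwise it lay between -1.26 and -1.03. Gbp11 did not pass (1.17 to 1.39) without either control array or the withdrawn array of experiment 2 in the absence of 4OHT, or without the control array of experiment 1 or the withdrawn array of experiment 2 under 4OHT. Vpreb1 did not pass without the withdrawn array of experiment 2 in the absence of 4OHT (0.715). Ccnd1 (-0.59 against -1.52, difference 0.93, adjusted p = 0.00519) passed for the difference with any array left out.

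Withdrawal for 6 h was measured only under 4OHT, so time and 4OHT cannot be told apart in the comparison with it. At 6 h, 2844 genes passed (14.3%), 1352 higher (6.78%) and 1492 lower (7.48%), and 4243 passed with the experiment as a block. Of the genes that were higher at 24 h without 4OHT, 834 were higher at 6 h, which is 37.4% of the first list and 61.7% of the second. For lower genes 814 were shared, 46.5% and 54.6%. Differences between the responses passed for 1009 genes (5.06%), 475 with a higher (2.38%) and 534 with a lower value (2.68%) at 24 h. With the experiment as a block 1810 passed. Without the withdrawn array of experiment 1 or of experiment 2 at 24 h, 654 or 660 passed, and 673 to 840 without 1 of the other arrays. The count at 6 h itself was 1490 without the array with IL-7 of experiment 1, 1850 and 1840 without either withdrawn array, and its count of higher genes was 2240 with the block.

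The division genes were the main group that differed. All 27 G2/M genes and 27 of 29 DNA replication genes passed with a lower value at 24 h. At 6 h no G2/M gene was lower and 1 was higher (median 0.21), and 2 DNA replication genes were lower (median -0.14). Mki67 differed by 0.19 and Mcm5 by -0.24 at 6 h, against -1.47 and -1.54 at 24 h. Without the withdrawn array of experiment 1 at 24 h, or the withdrawn array of experiment 1 at 6 h, 17 DNA replication genes passed. Kif4 (-2.68), Mastl, which keeps cells in mitosis (-2.67), and Fancd2 (-2.61) showed the largest differences of this direction.

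Ribosome biogenesis genes had fallen further at 6 h under 4OHT than at 24 h without it, and polyamine and nucleotide genes were divided. At 24 h under 4OHT the medians of these lists were -1.36 and -2.11, and Myc was at -3.27. The 6 h and 24 h withdrawals under 4OHT were not tested against each other. Of 24 ribosome biogenesis genes 23 were lower at 6 h, with a median of -1.61 against -0.69 at 24 h without 4OHT, and 18 passed for the difference. Of the 19 polyamine and nucleotide genes 14 were lower at 6 h (median -1.15, against 19 and -1.25 at 24 h); the difference passed as less low at 24 h for 4, among them Srm, Dctd and Atic, and as lower at 24 h for 6, among them Rrm2 (-1.90), Tyms (-1.74) and Mthfd2 (-1.21). Srm was at -3.29 at 6 h and -1.31 at 24 h (difference 1.99), Dctd at -3.05 and -1.22 (difference 1.83), and Myc at -2.13 and -0.80. Both Cish and Bcl6 passed for the difference too: Cish was at -2.99 at 6 h against -1.36 at 24 h, and Bcl6 at 2.48 against 1.65. Of the 15 STAT5 response genes, 10 were lower and 2 higher at 6 h (median -0.57), against 5 and 2 at 24 h, and Mycn (-1.23), Pim1 (-0.59), Osm (-0.57) and Socs1 (-0.35) passed at 6 h. Gbp4 did not pass at 6 h (0.04), and its difference from 24 h was 2.24.

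**Figure D5:**
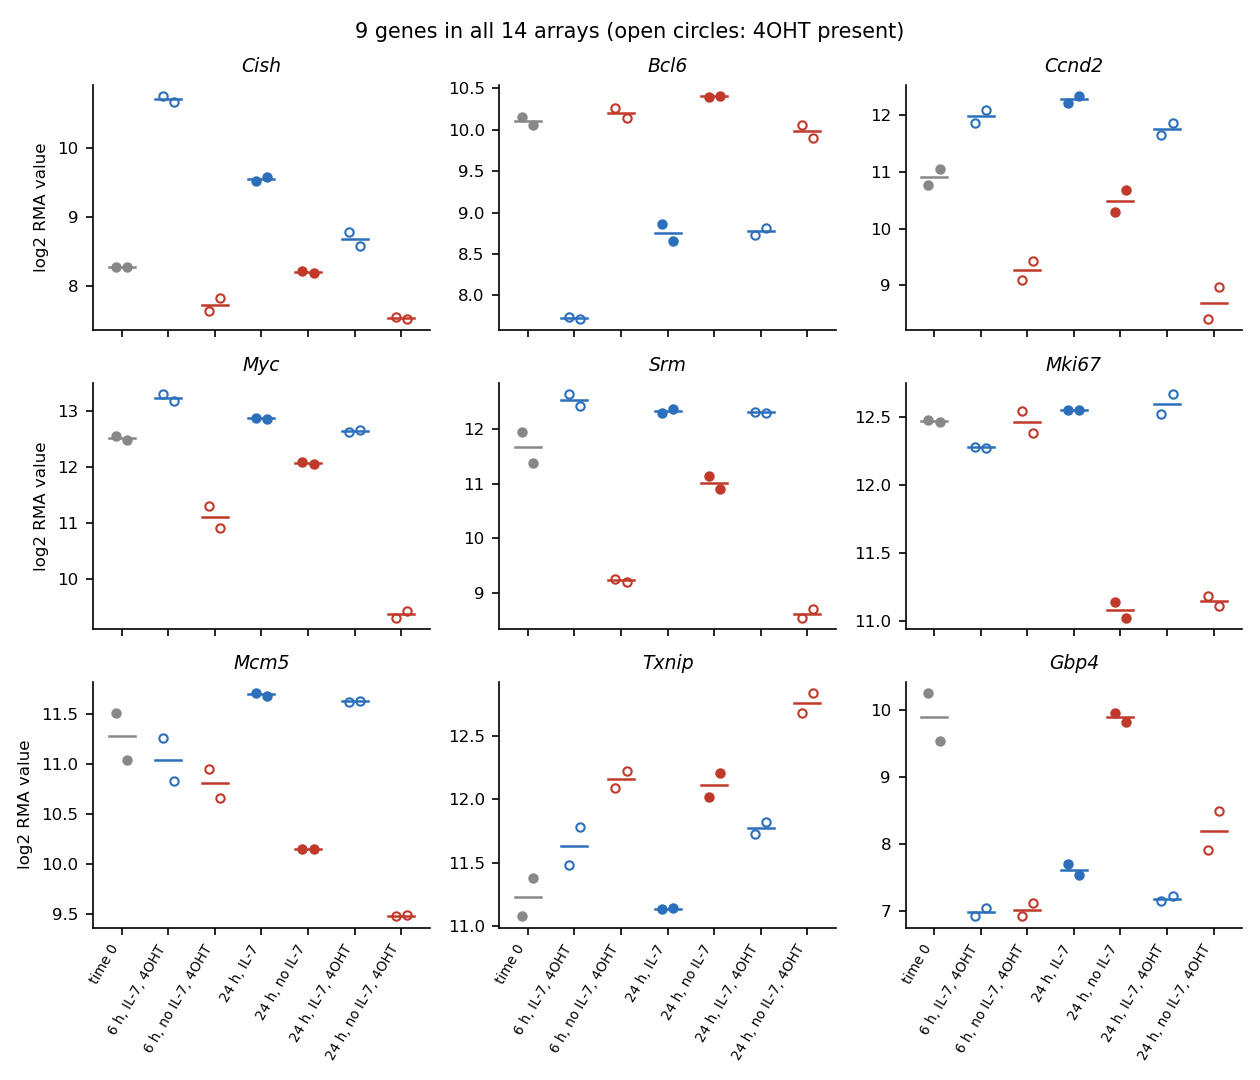
Log2 expression of Cish, Bcl6, Ccnd2, Myc, Srm, Mki67, Mcm5, Txnip and Gbp4 in all 14 arrays, 1 symbol per array, ordered by time and IL-7, with open circles for cells with 4OHT. Mki67 and Mcm5 are low only in the 4 arrays of 24 h without IL-7, and Myc is lowest in the arrays without IL-7 that had 4OHT.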

How the data were processed

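RNA of BH1-Bcl2-Ik1ER cells (150 ng per array) was read on Affymetrix whole-transcript arrays, 14 in all. The deposited values are log2 signals, made by the authors with RMA in Affymetrix Expression Console 1.1, per the submitters' processing notes and the labels. They were used without further scaling. GEO's platform annotation gave 21789 of 35556 probe sets 1 symbol, 1621 several and 12146 none. The 19938 genes were each read on the probe set with the highest mean.

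Group means of all 7 groups were fitted over the 14 arrays with lmFit and eBayes of limma 3.58.1, under R 4.3.3 (Benjamini-Hochberg adjustment over 19938 genes, two-sided, adjusted p under 0.05, no fold minimum). Differences between withdrawals were contrasts of the same fit. Lists are described by counts and medians, with no set test, and read against the share of all genes that passed (20.0%, of which 11.2% higher and 8.78% lower) and the median of all genes (-0.01). Genes above the median of all values, fitted alone, gave 4329 passing genes, so more than 20.0% of them passed. In most lists most members are such genes, and no list was read against these genes alone. The labels say that arrays came from 2 independent experiments, so the experiment number marks a shared batch. After removal of group means, arrays with the same number correlated by 0.124 to 0.631 over all 21 pairs of groups (0.229 for the groups compared). The fit with the experiment as a block is an alternative here. Its value is given for the total counts, for genes whose call it is said to change and for some list counts. The other alternatives were quantile normalization, genes above the median, the mean of a gene's probe sets, a trended robust prior, the 4 arrays alone, time 0 as the reference, and leaving out each array, in which a lone array is assumed to vary like the other groups. The p-values measure the spread between 2 experiments on 1 line.

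Named genes are the 12 largest rises and falls among passing genes that had the same sign in each experiment and exceeded the median value in their higher group, leaving out predicted genes, olfactory receptors, small RNAs and immunoglobulin variable segments; the 6 largest differences in each direction from the other withdrawals; and members of 41 gene lists. Members and lists were chosen with earlier results of these data known. Promoters came from RefSeq (GRCm38.p6): 19177 promoters of 15614 measured genes. The genome build of the array annotation is not given in the sources used here. The test was tried on simulated data before use.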

Additional observations from a re-analysis of the deposited data

Results flagged for a closer look

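These results are set apart because the response to 24 h of IL-7 withdrawal without 4OHT differed from another withdrawal by a direct test, as withdrawal without 4OHT minus the other. Against 24 h of withdrawal under 4OHT, 137 genes differed. Falls were smaller, or rises larger, without 4OHT for Myc (2.47), Srm (2.37), Dctd (2.16), Nrp2 (1.66), the pyrophosphatase gene Ppa1 (1.62), Vegfa (1.59), Polr1b (1.48), Cxcr5 (1.47), Gbp11 (1.35), Atic (1.31), Tnfsf10 (1.03), Gnl3 (1.02), Ccnd1 (0.93), Tsr1 (0.89) and Vpreb1 (0.75). The difference was negative for Adgrg1 (-1.24), Nuggc (-1.23), Tfrc (-1.14), Cd248 (-1.12), S100a10 (-1.11) and Zfp831 (-0.92). In the absence of 4OHT, Cxcr5, Nuggc and Zfp831 lay under the median of all values both with and without IL-7. With each of the 8 arrays left out, Myc, Srm, Dctd, Nrp2, Nuggc, S100a10, Atic, Polr1b, Gnl3 and Ccnd1 passed throughout. Adgrg1 (-1.06), Ppa1 (1.64), Tfrc (-1.06), Tsr1 (0.92), Vegfa (1.58) and Zfp831 (-0.79) did not pass without the control array of experiment 2 under 4OHT. Adgrg1 (-1.03), Gbp11 (1.30), Tfrc (-1.03) and Zfp831 (-1.02) did not pass without the control array of experiment 1 in the absence of 4OHT. Adgrg1 (-1.12), Cxcr5 (1.29), Ppa1 (1.49) and Zfp831 (-0.83) did not pass without the withdrawn array of experiment 1 under 4OHT. Adgrg1 (-1.12), Cxcr5 (1.45), Gbp11 (1.17), Ppa1 (1.64), Tfrc (-1.20), Tnfsf10 (1.05), Tsr1 (0.81), Vegfa (1.49), Vpreb1 (0.71) and Zfp831 (-0.86) did not pass without the withdrawn array of experiment 2 in the absence of 4OHT. Cd248 (-1.07), Cxcr5 (1.36), Gbp11 (1.39), Ppa1 (1.58), Tfrc (-1.26), Tnfsf10 (0.85), Tsr1 (0.76), Vegfa (1.62) and Zfp831 (-0.83) did not pass without the control array of experiment 2 in the absence of 4OHT. Cd248 (-1.06), Cxcr5 (1.49), Ppa1 (1.60), Tfrc (-1.09), Tnfsf10 (1.01), Tsr1 (0.97) and Zfp831 (-0.98) did not pass without the withdrawn array of experiment 1 in the absence of 4OHT. Gbp11 (1.17), Ppa1 (1.60), Tfrc (-1.23), Tnfsf10 (0.86), Tsr1 (0.86), Vegfa (1.60) and Zfp831 (-1.05) did not pass without the control array of experiment 1 under 4OHT. Gbp11 (1.22), Tnfsf10 (1.02), Tsr1 (0.80), Vegfa (1.52) and Zfp831 (-1.01) did not pass without the withdrawn array of experiment 2 under 4OHT.

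Against 6 h of withdrawal under 4OHT, where time and 4OHT cannot be told apart, 1009 genes differed. The value was higher at 24 h without 4OHT for Gbp4 (2.24), Srm (1.99), Cxcr5 (1.98), Gbp11 (1.84), Dctd (1.83) and the semaphorin gene Sema6d (1.80, from 0.78 at 24 h and -1.02 at 6 h; the 24 h value did not pass without the withdrawn array of experiment 2, at 0.66). It was lower for Kif4 (-2.68), Mastl (-2.67), Fancd2 (-2.61), Kif2c (-2.60), Nuf2 (-2.59) and Ska3 (-2.55). No group had 4 or more arrays, so single arrays that stand apart were not looked for in this way.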

How the results depend on the processing

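Limits: 2 arrays per group, 1 line and log2 signals without read depth leave small differences undetected, and values under the median of all probe sets carry little signal. Of the genes named, 167 were followed through every alternative, and the counts of named genes in this section refer to these. The other genes named, such as Stat2 and Bst2, were not followed in this way. Of the 167, 145 passed. Another scaling, probe set rule, prior, filter or block lost the call of 4 of these 145. They were Mir181b-2 with the trended prior (1.27, adjusted p = 0.0701), Prdm1 with quantile normalization (0.26, adjusted p = 0.0775) and, with the mean of probe sets, Cdkn1b (0.43, adjusted p = 0.0965) and Rpl13 (adjusted p = 0.0607). Calls were gained by Igll1, Kit, Osm, Socs1 and Cd79a with quantile normalization, and by Cdk6, Npm1 and Cd79a with the block, the bright genes and the trended prior. In 19 a call was lost with 1 array left out, in 60 with time 0 as the reference and in 4 (Ccnd3, Mcl1, Ikzf1, Prdm1) with the 4 arrays alone. The count of passing genes was 3982, and 5499 with the experiment as a block, 4318 with quantile normalization, 4329 for bright genes, 3989 with the mean of probe sets, 3968 with the trended prior, 3930 with the 4 arrays alone, 1099 with time 0 as the reference and 2279 to 3252 with 1 array left out. The share of higher genes among them was 56.1%, and 48.2% with quantile normalization.

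The count for the difference from withdrawal under 4OHT was 137, and 449 with the block, 178 with quantile normalization and 50 to 96 with 1 array left out. The difference from 6 h counted 1009, 1810 with the block and 654 to 840 with 1 array left out. Withdrawal for 6 h gave 2844, or 1490 to 2336, and withdrawal under 4OHT 4846, or 3257 to 4014. Apart from Cdk6, Npm1, Cd79a, Mir181b-1 and Mir181a-2, the block changed the call of none of the 167 genes followed. Signs turned for genes near 0: with quantile normalization Nuggc was -0.016 and Bcl2 -0.083; with time 0 as the reference Gbp4 was -0.0042, Vegfa 0.065, Osm 0.14, Ddit4 -0.21, Rag1 0.0504 and Rag2 0.00096; with 1 array left out Vegfa lay between -0.132 and 0.0700, Il2ra between -0.0740 and 0.0557, Rag1 between -0.0338 and 0.0067, Bcl2 between -0.0401 and 0.0586, and Rag2 between -0.323 and 0.0289. Ddit4 is the one of these besides Gbp4 that passed against the cells with IL-7. Where a count moved, the cause was not tested. The fits that leave 1 array out also hold fewer arrays.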

Other observations

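The arrays also carry probe sets for microRNA genes, which were read after their values had been seen. Of 300 such genes measured, 24 passed (8.0%), 16 higher and 8 lower without IL-7, against 20.0% of all genes. The sequences of miR-181a and miR-181b are shown because 2 of their 4 loci passed as higher and because both carry the same seed, bases 2 to 8 from the 5' end, in capitals. They are RefSeq mature sequences (GRCm38.p6), encoded on the plus strand at chr1:137966468-137966490 and chr1:137966650-137966673 and again at chr2:38852741-38852763 and chr2:38853845-38853868.
mmu-miR-181a-5p: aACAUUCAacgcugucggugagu
mmu-miR-181b-5p: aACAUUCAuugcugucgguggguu
Mir181a-1 on chromosome 1 went from 5.92 and 6.34 to 7.26 and 7.69 log2 (1.35, SE 0.32, adjusted p = 0.0106), and Mir181b-2 on chromosome 2 from 8.04 and 8.68 to 9.48 and 9.78 (1.27, adjusted p = 0.0378). Both groups were higher in experiment 2. Mir181a-1 did not pass without the withdrawn array of experiment 2 (1.13) or the control array of experiment 1 (1.14). Mir181b-2 did not pass without these (1.12 and 0.95) or the withdrawn array of experiment 1 (1.42). Mir181b-1 (0.95, adjusted p = 0.0548) and Mir181a-2 (0.89, adjusted p = 0.0542) did not pass, and did with the experiment as a block (adjusted p = 3.03e-05 and 0.00164). The other loci of the family, Mir181c (0.23) and Mir181d (-0.07), did not pass. Under 4OHT the 24 h differences were 0.46 for Mir181a-1 and 0.24 for Mir181b-2, and neither passed. These probe sets may read the precursor or the host transcript in place of the mature microRNA.

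The host transcript of the miR-17 cluster, Mir17hg, was lower, from 8.62 in both arrays with IL-7 to 7.73 and 7.76 without (-0.87, SE 0.12, adjusted p = 0.000246), as were Mir19a (-0.99), Mir19b-1 (-0.87) and Mir18 (-0.86) within it. The host transcript did not pass against time 0 (-0.10).

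Among probe sets outside the gene list, 1060 of 12146 without a listed gene passed in a fit over all probe sets (8.73%), as did 230 of 1621 with several symbols (14.2%) and 3579 of 21789 with 1 symbol (16.4%).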
